A study of Mus musculus with 16 samples.

Results

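The 39 genes described here encode the enzymes of fatty acid oxidation in mouse liver, their regulators and other known targets of the nuclear receptor PPAR-alpha. They were taken by symbol, through the Ensembl identifiers of the deposited count table, and each of the 39 matched 1 of the 55357 genes in it. The rule for their choice uses no measured value, but the genes and branches were chosen with earlier results of these data known. By what their products are known to do, 4 are regulators or secreted signals, 19 act in mitochondria, 6 in peroxisomes and 4 in microsomes, and 6 are other targets of the receptor. All 39 had enough reads to be tested, with 7 to 15061 counts for a gene in a library.

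RNA of 16 mouse liver samples was sequenced, 4 in each of 4 groups. The AUG group carries a Terc allele that the labels call CUG/AUG, and AUG_WT is the wild-type group of its line. The del7 group carries a Terc without the 7 nucleotides 29 to 35, and del7_WT is its wild-type group. Terc encodes the telomerase RNA and a small protein, TERP. All mice had food at will and no treatment. Age, sex and the hour of sampling do not stand in the labels, and neither does whether each replicate is an animal of its own, so a p-value here covers only how these samples spread, perhaps for technical reasons. Expression is given as CPM, the read count of a gene relative to the scaled size of its library, and total gene counts were 7714058 to 14629022 per library.

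In a fasting animal the liver takes up fatty acids and burns them, and PPAR-alpha, activated by fatty acids, switches on the genes for this. Carnitine palmitoyltransferases bring long chains into mitochondria, where beta-oxidation shortens them to acetyl-CoA, the source of ketone bodies. Peroxisomes shorten very long and dicarboxylic acids, and microsomal cytochrome P450 enzymes of the Cyp4a family make the dicarboxylic acids by omega-hydroxylation. In rodents the peroxisomal and microsomal genes are known as the most inducible by PPAR-alpha ligands.

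PPAR-alpha binds with its partner RXR to a direct repeat of the hexamer AGGTCA with any base between the copies, AGGTCANAGGTCA, which reads TGACCTNTGACCT on the opposite strand. RefSeq windows of 300 bases (250 before to 50 after a start site, build GRCm38.p6) were found for 31 of the 39 genes, in 34 windows. Cyp4a10, Cyp4a14, Cyp4a31, Acaa2, Acat1, Decr1, Angptl4 and Vnn1 had no window and were not searched, so Cyp4a32 was the only microsomal gene searched. No exact match lay in these 34 windows, and 0.0396% of 32851 windows of all genes held one. With up to 1 mismatch outside the middle base, 1 of 34 windows (2.94%) held a match, against 0.554% of all windows, and with up to 2 mismatches 5 of 34 (14.7%), against 3.86%. These 5 were the windows of Fabp1, Acot4, Creb3l3, Etfa and Slc25a20. The 250 bases before the start of 3 of them are shown, 1 each for a lipid carrier, a peroxisomal enzyme and a mitochondrial enzyme, 5′ to 3′ on the strand of the gene, with the match in capitals. Each match reads along the opposite strand, with 1 mismatch in Fabp1 (chr6:71199629-71199878, plus strand) from position -67, and with 2 in Acot4 (chr12:84038129-84038378, plus strand) from position -13 and in Etfa (chr9:55512244-55512493, minus strand) from position -77. A match is a resemblance in letters and no evidence of binding.
Fabp1: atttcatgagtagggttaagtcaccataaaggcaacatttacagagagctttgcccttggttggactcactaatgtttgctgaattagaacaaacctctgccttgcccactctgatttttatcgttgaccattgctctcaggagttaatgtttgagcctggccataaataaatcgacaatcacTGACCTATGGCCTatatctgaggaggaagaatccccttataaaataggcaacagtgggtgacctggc
Acot4: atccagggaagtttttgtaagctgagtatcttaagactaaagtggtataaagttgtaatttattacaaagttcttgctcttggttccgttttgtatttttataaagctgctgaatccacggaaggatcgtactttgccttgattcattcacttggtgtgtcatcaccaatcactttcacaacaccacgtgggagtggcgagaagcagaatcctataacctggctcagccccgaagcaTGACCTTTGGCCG
Etfa: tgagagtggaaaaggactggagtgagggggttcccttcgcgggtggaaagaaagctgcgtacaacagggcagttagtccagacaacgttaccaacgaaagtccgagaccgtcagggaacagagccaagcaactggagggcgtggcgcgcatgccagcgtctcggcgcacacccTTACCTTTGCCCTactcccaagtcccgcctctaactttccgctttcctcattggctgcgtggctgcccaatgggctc

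AUG_WT replicate 1 stood apart, and every comparison with AUG_WT is given with and without it. It was the lowest of the 16 libraries for 36 of the 39 genes (92.3%), against 25.8% of all 14421 tested genes. These were all 19 mitochondrial, all 6 peroxisomal and all 4 microsomal genes, 3 of 4 regulators and 4 of 6 other targets. The median shortfall differed by branch. The median difference in log2 CPM between AUG_WT replicate 1 and the mean of AUG_WT replicates 2 to 4 was -1.47 for mitochondrial, -2.37 for peroxisomal and -3.91 for microsomal genes, against 0.03 for all tested genes. Single genes ran from -2.02 (Cpt2) to -1.18 (Etfb) for mitochondrial and from -3.55 (Acaa1b) to -1.17 (Acaa1a) for peroxisomal genes. Microsomal genes ran from -4.46 (Cyp4a10) to -2.94 (Cyp4a14), so the peroxisomal range overlapped both others. Cpt1a was at 42.9% of the other 3 AUG_WT libraries and Cpt2 at 24.4%. Acaa1a was at 44.0%, Acaa1b at 7.41% and Cyp4a10 at 4.20%. The exceptions were Ppargc1a and Angptl4, lowest in AUG replicate 1 and del7 replicate 1, and Ucp2, an uncoupling protein of the inner mitochondrial membrane also known from immune cells, which was at its highest of 16 libraries there.

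Markers of liver and other cells moved in the same library, where 25.8% of all tested genes were at their lowest of 16 and 28.9% at their highest. The 11 tested hepatocyte markers, such as albumin and the apolipoproteins, had a median difference of -1.21, with 10 of 11 lowest there, and their summed level was 51699 CPM against 112796 to 171515 CPM in the other 15 libraries. B and plasma cell markers summed to 1620 CPM there, with 13 of 14 at their highest, against 52.4 to 378 CPM in the other 15. T and natural killer cell markers summed to 148 CPM, with 12 of 14 highest, against 6.62 to 26.8 CPM. All 20 cell cycle genes were highest there, at 597 CPM in sum against 42.7 to 61.1 CPM, and 8 of 13 Kupffer cell markers, at 1128 CPM against 275 to 905 CPM. No marker of these 5 lists was at 0 in all libraries. In bulk tissue, fewer cells of a type and less RNA per cell cannot be told apart, and the part of cell composition in the values below was not tested.

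**Figure D1:**
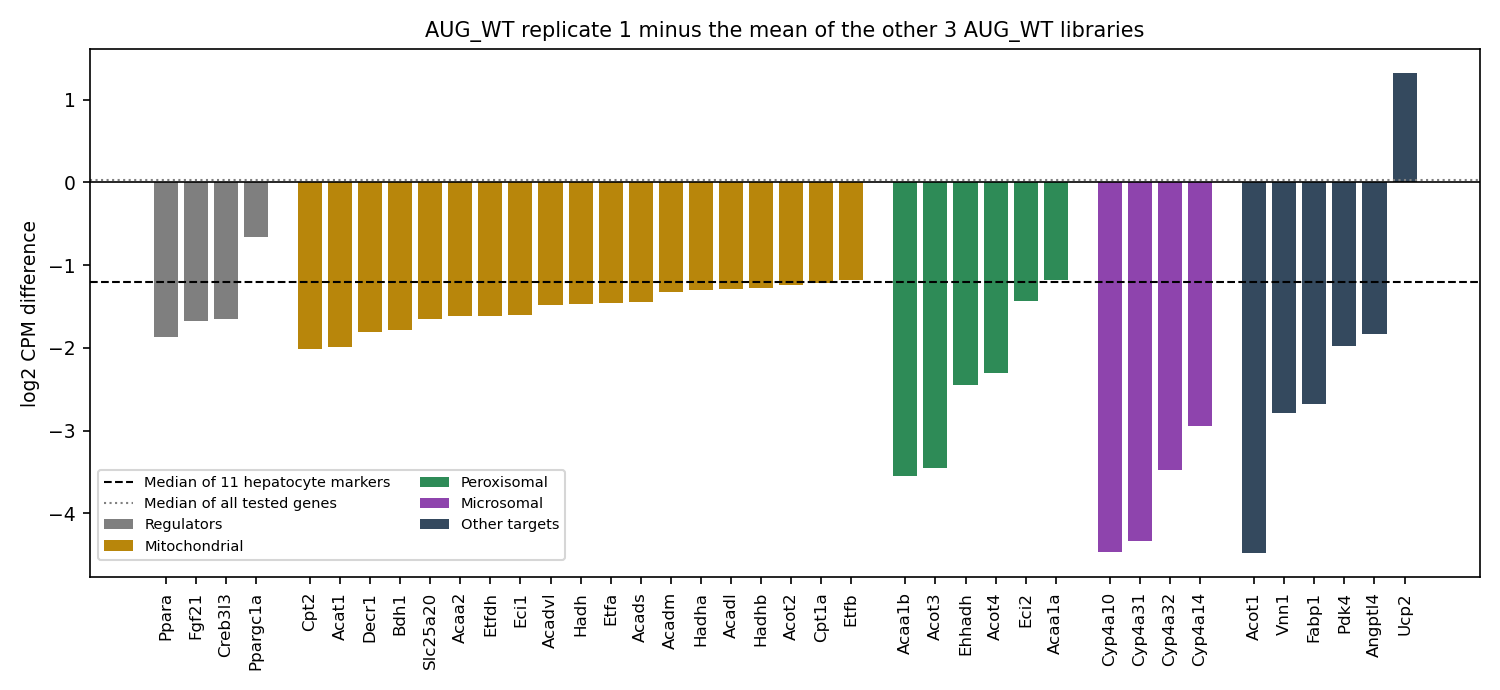
Difference in log2 CPM between AUG_WT replicate 1 and the mean of AUG_WT replicates 2 to 4, 1 bar per gene, coloured by branch; the dashed line is the median of 11 hepatocyte markers and the dotted line that of all tested genes. Microsomal genes have the lowest branch median, at -3.91, and Ucp2 alone among the 39 lies above 0, at 1.32.

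Outside that library the branches differed in how much of the transcriptome they took and how steady they were. All 39 genes together took 0.571% to 0.976% of gene counts in the 15 libraries, and 0.321% in AUG_WT replicate 1. Mitochondrial genes held 0.329% to 0.461%, peroxisomal genes 0.0803% to 0.212% and microsomal genes 0.0266% to 0.122%. Levels of different genes were compared as CPM per kilobase of exon, over the 15 libraries. Fabp1, the cytosolic carrier that hands fatty acids to PPAR-alpha and the oxidation enzymes, was highest at 1715 ± 363 CPM per kilobase (SD, n = 15). Acaa2, the last thiolase of mitochondrial beta-oxidation, followed at 354 ± 43.9 CPM per kilobase. Acaa1b at 230.3 ± 80.2, Cyp4a14 at 178 ± 81.0 and Cyp4a10 at 153 ± 42.7 CPM per kilobase came next and lay within their spread of each other. Cyp4a31 was lowest at 2.57 ± 3.25 and Fgf21 next at 2.64 ± 1.57 CPM per kilobase, within their spread of each other. Lengths are the union of all annotated exons, so genes with long retained-intron models read lower on this scale.

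The median spread between replicates differed by branch, with overlap between single genes. The median SD of log2 CPM within groups was 0.19 for mitochondrial, 0.36 for peroxisomal and 0.79 for microsomal genes in the 15 libraries, against 0.25 for all tested genes. It was 0.43 for regulators and 0.55 for other targets. Single genes ran from 0.121 to 0.336 for mitochondrial, 0.334 to 0.615 for peroxisomal and 0.490 to 1.01 for microsomal genes. The steadiest were Hadha, the alpha subunit of the trifunctional protein, with an SD of 0.121, and Acads, the short-chain acyl-CoA dehydrogenase, with 0.123. Cyp4a14 at 1.01 and Fgf21, a hormone secreted by the liver in fasting, at 0.946 spread most, and Fgf21 had only 7 to 64 counts per library.

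**Figure D2:**
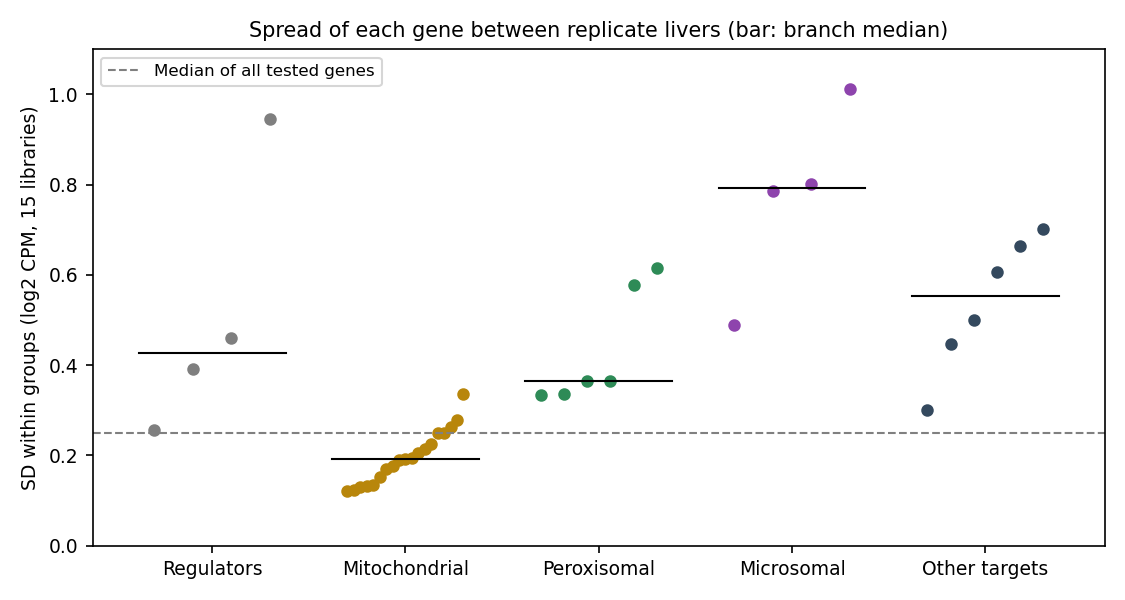
SD of log2 CPM within the 4 groups for each of the 39 genes over 15 libraries, 1 point per gene, by branch; bars are branch medians and the dashed line is the median of all tested genes. The mitochondrial median of 0.19 lies below the line at 0.25, and the microsomal median is 0.79.

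The level of a branch in a library was taken as the mean of its genes' log2 CPM, each gene centred on its mean over the 15 libraries. The mitochondrial branch was at -0.06, 0.04, -0.05 and 0.23 in AUG replicates 1 to 4, against -1.41, 0.01, 0.01 and 0.29 in AUG_WT replicates 1 to 4. It was at -0.32, -0.17, -0.05 and 0.09 in del7, against -0.13, 0.06, 0.11 and -0.08 in del7_WT. AUG_WT replicate 1 apart, all levels lay between -0.32 and 0.29, and each mutant group overlapped its wild types. The peroxisomal branch was at -0.27, -0.02, 0.14 and 0.67 in AUG, against -2.11, -0.08, 0.29 and 0.63 in AUG_WT. It was at -0.80, 0.02, -0.21 and 0.11 in del7, against -0.33, 0.05, -0.01 and -0.19 in del7_WT. Replicate 4 was highest in AUG and AUG_WT, and del7 replicate 1 was lowest after AUG_WT replicate 1. The microsomal branch was at -0.46, -0.18, 0.13 and 0.70 in AUG, against -3.29, 0.01, 0.49 and 1.05 in AUG_WT. It was at -0.98, 0.02, 0.16 and 0.29 in del7, against -0.34, -0.16, -0.26 and -0.46 in del7_WT. The 4 del7_WT libraries lay close together, and the other 3 groups each covered a range of more than a unit of log2, so both mutant groups overlapped their wild types here too.

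**Figure D3:**
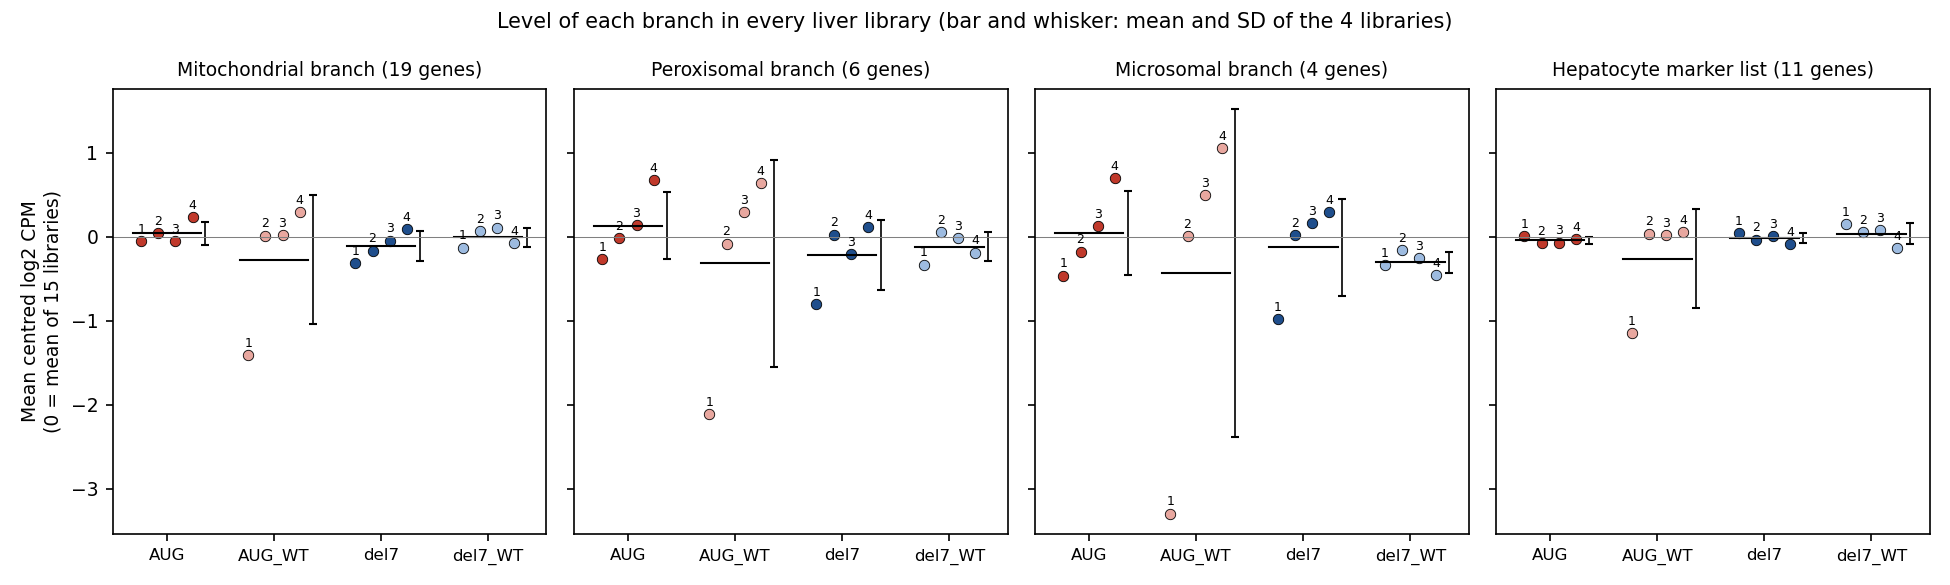
Branch level in each library, as mean log2 CPM centred on the 15 libraries other than AUG_WT replicate 1, for 3 branches and the hepatocyte markers, with 1 point per library numbered by replicate; bars and whiskers are the mean and SD of the 4 libraries of a group. AUG_WT replicate 1 lies at -1.41 for mitochondrial, -2.11 for peroxisomal and -3.29 for microsomal genes, and AUG_WT replicate 4 is highest for the microsomal genes at 1.05.

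Among the regulators, Ppara had 118, 238, 187 and 279 CPM in AUG replicates 1 to 4, against 64.9, 272, 171 and 286 CPM in AUG_WT replicates 1 to 4. It had 96.3, 145, 229 and 224 CPM in del7 replicates 1 to 4, against 161, 201, 196 and 173 CPM in del7_WT replicates 1 to 4. Ppara encodes the receptor itself, and its groups overlapped in both lines. Creb3l3 had 148, 197, 198 and 237 CPM in AUG replicates 1 to 4, against 66.4, 217, 181 and 229 CPM in AUG_WT replicates 1 to 4. It had 129, 148, 204 and 195 CPM in del7 replicates 1 to 4, against 176, 176, 222 and 159 CPM in del7_WT replicates 1 to 4. Creb3l3 encodes a membrane-bound transcription factor of the fasting liver that acts with PPAR-alpha, and its groups overlapped too. Fgf21 had 3.47, 1.47, 3.62 and 2.31 CPM in AUG replicates 1 to 4, against 0.631, 6.07, 0.796 and 2.71 CPM in AUG_WT replicates 1 to 4. It had 3.003, 0.888, 1.44 and 3.86 CPM in del7 replicates 1 to 4, against 0.981, 0.743, 3.50 and 2.86 CPM in del7_WT replicates 1 to 4. Fgf21 was near the lower limit of detection in every library, at 7 to 64 counts. Ppargc1a, a coactivator of PPAR-alpha, averaged 19.2 ± 6.50 CPM in AUG, 19.7 ± 6.94 in AUG_WT, 22.9 ± 5.95 in del7 and 21.1 ± 1.01 in del7_WT (SD, n = 4 each). Its lowest library was AUG replicate 1, not AUG_WT replicate 1.

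In the mitochondrial branch, Cpt1a had 313, 462, 455 and 512 CPM in AUG replicates 1 to 4, against 202, 512, 407 and 495 CPM in AUG_WT replicates 1 to 4. It had 321, 419, 499 and 635 CPM in del7 replicates 1 to 4, against 435, 513, 424 and 288 CPM in del7_WT replicates 1 to 4. Cpt1a encodes the liver carnitine palmitoyltransferase of the outer membrane, the controlled entry step, and overlapped between the groups of both lines. Acaa2 had 535, 572, 489 and 632 CPM in AUG replicates 1 to 4, against 177, 448, 551 and 654 CPM in AUG_WT replicates 1 to 4. It had 445, 451, 625 and 530.3 CPM in del7 replicates 1 to 4, against 492, 535, 573 and 513 CPM in del7_WT replicates 1 to 4. Leaving AUG_WT replicate 1 aside, Acaa2 varied by 1.47-fold between its highest and lowest library. Acat1 had 316, 299, 244 and 354 CPM in AUG replicates 1 to 4, against 85.2, 393, 266 and 374 CPM in AUG_WT replicates 1 to 4. It had 247, 229, 261 and 290.3 CPM in del7 replicates 1 to 4, against 289.7, 325, 386 and 297 CPM in del7_WT replicates 1 to 4. Acat1, which makes acetoacetyl-CoA for ketone bodies, was lower on average in del7 than in del7_WT, with del7 replicate 4 just above the lowest del7_WT library. The other 16 mitochondrial genes varied by 1.37-fold (Hadha) to 2.17-fold (Acot2) between the highest and lowest of the 15 libraries. They are the carnitine palmitoyltransferase Cpt2, the carnitine carrier Slc25a20, the acyl-CoA dehydrogenases Acadvl, Acadl, Acadm and Acads, and the later steps Hadha, Hadhb and Hadh. The others are the helpers for unsaturated chains Eci1 and Decr1, the electron carriers Etfa, Etfb and Etfdh, the ketone enzyme Bdh1 and the thioesterase Acot2.

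In the peroxisomal branch, Acaa1b had 410.3, 346, 568 and 778 CPM in AUG replicates 1 to 4, against 35.6, 192, 558 and 690.0 CPM in AUG_WT replicates 1 to 4. It had 254, 488, 484 and 449.8 CPM in del7 replicates 1 to 4, against 333, 413, 501 and 313 CPM in del7_WT replicates 1 to 4. Acaa1b, a peroxisomal thiolase, was higher in AUG replicate 4 than in any other library, and AUG_WT replicate 2 was also below every AUG library. Ehhadh had 399, 286, 387 and 419 CPM in AUG replicates 1 to 4, against 72.8, 295, 419 and 507 CPM in AUG_WT replicates 1 to 4. It had 241, 576, 293 and 354 CPM in del7 replicates 1 to 4, against 321, 353, 377 and 287 CPM in del7_WT replicates 1 to 4. Ehhadh, the peroxisomal bifunctional enzyme, was highest in del7 replicate 2 and lowest, AUG_WT replicate 1 apart, in del7 replicate 1. The thioesterases Acot3 and Acot4 release free acids from CoA in peroxisomes. Acot3 had 116, 208, 132 and 319 CPM in AUG replicates 1 to 4, against 21.3, 175, 247 and 296 CPM in AUG_WT replicates 1 to 4. It had 55.0, 142, 76.3 and 166 CPM in del7 replicates 1 to 4, against 75.0, 148, 92.3 and 163 CPM in del7_WT replicates 1 to 4. Replicate 1 was the lowest and replicate 4 the highest library in all 4 groups. Acot4 had 127, 164, 179.5 and 318 CPM in AUG replicates 1 to 4, against 49.9, 244, 224 and 273 CPM in AUG_WT replicates 1 to 4. It had 89.9, 146, 138 and 166 CPM in del7 replicates 1 to 4, against 128, 153, 148 and 158 CPM in del7_WT replicates 1 to 4. Acot3 and Acot4 were both higher in AUG_WT replicates 2 to 4 than in every del7_WT library. Acaa1a, the second thiolase gene, averaged 118 ± 35.8 CPM in AUG, 109.5 ± 37.9 in AUG_WT, 109 ± 24.2 in del7 and 119 ± 12.7 in del7_WT, and Eci2, a peroxisomal enoyl-CoA isomerase, 142 ± 29.9, 126 ± 56.1, 118 ± 31.96 and 136 ± 27.7 CPM in the same groups (SD, n = 4 each).

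The 4 microsomal genes encode omega-hydroxylases on chromosome 4. Cyp4a10 had 243, 274, 249.7 and 370.3 CPM in AUG replicates 1 to 4, against 14.2, 186, 429 and 397 CPM in AUG_WT replicates 1 to 4. It had 162, 338, 390.4 and 436 CPM in del7 replicates 1 to 4, against 307, 447, 271 and 329 CPM in del7_WT replicates 1 to 4. Leaving AUG_WT replicate 1 aside, del7 replicate 1 was lowest. Cyp4a14 had 508, 158, 405 and 566 CPM in AUG replicates 1 to 4, against 36.4, 60.3, 468 and 789 CPM in AUG_WT replicates 1 to 4. It had 423, 401, 802 and 716 CPM in del7 replicates 1 to 4, against 443, 400.2, 550.2 and 247 CPM in del7_WT replicates 1 to 4. AUG_WT replicates 1 and 2 were its lowest libraries, and only del7 replicate 3 was above AUG_WT replicate 4. Cyp4a31 had 2.49, 5.68, 5.42 and 6.46 CPM in AUG replicates 1 to 4, against 0.491, 34.8, 7.05 and 9.82 CPM in AUG_WT replicates 1 to 4. It had 1.26, 3.47, 5.09 and 3.61 CPM in del7 replicates 1 to 4, against 2.17, 1.77, 3.76 and 4.02 CPM in del7_WT replicates 1 to 4. AUG_WT replicate 2 was the highest of 16 and AUG_WT replicate 1 the lowest, so the whole range of this gene lay inside 1 group. Cyp4a32 had 7.20, 20.8, 21.8 and 43.3 CPM in AUG replicates 1 to 4, against 2.53, 22.5, 23.5 and 51.4 CPM in AUG_WT replicates 1 to 4. It had 5.69, 18.6, 8.07 and 16.4 CPM in del7 replicates 1 to 4, against 10.6, 15.9, 7.14 and 7.06 CPM in del7_WT replicates 1 to 4. Replicate 1 was lowest in AUG, AUG_WT and del7.

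**Figure D4:**
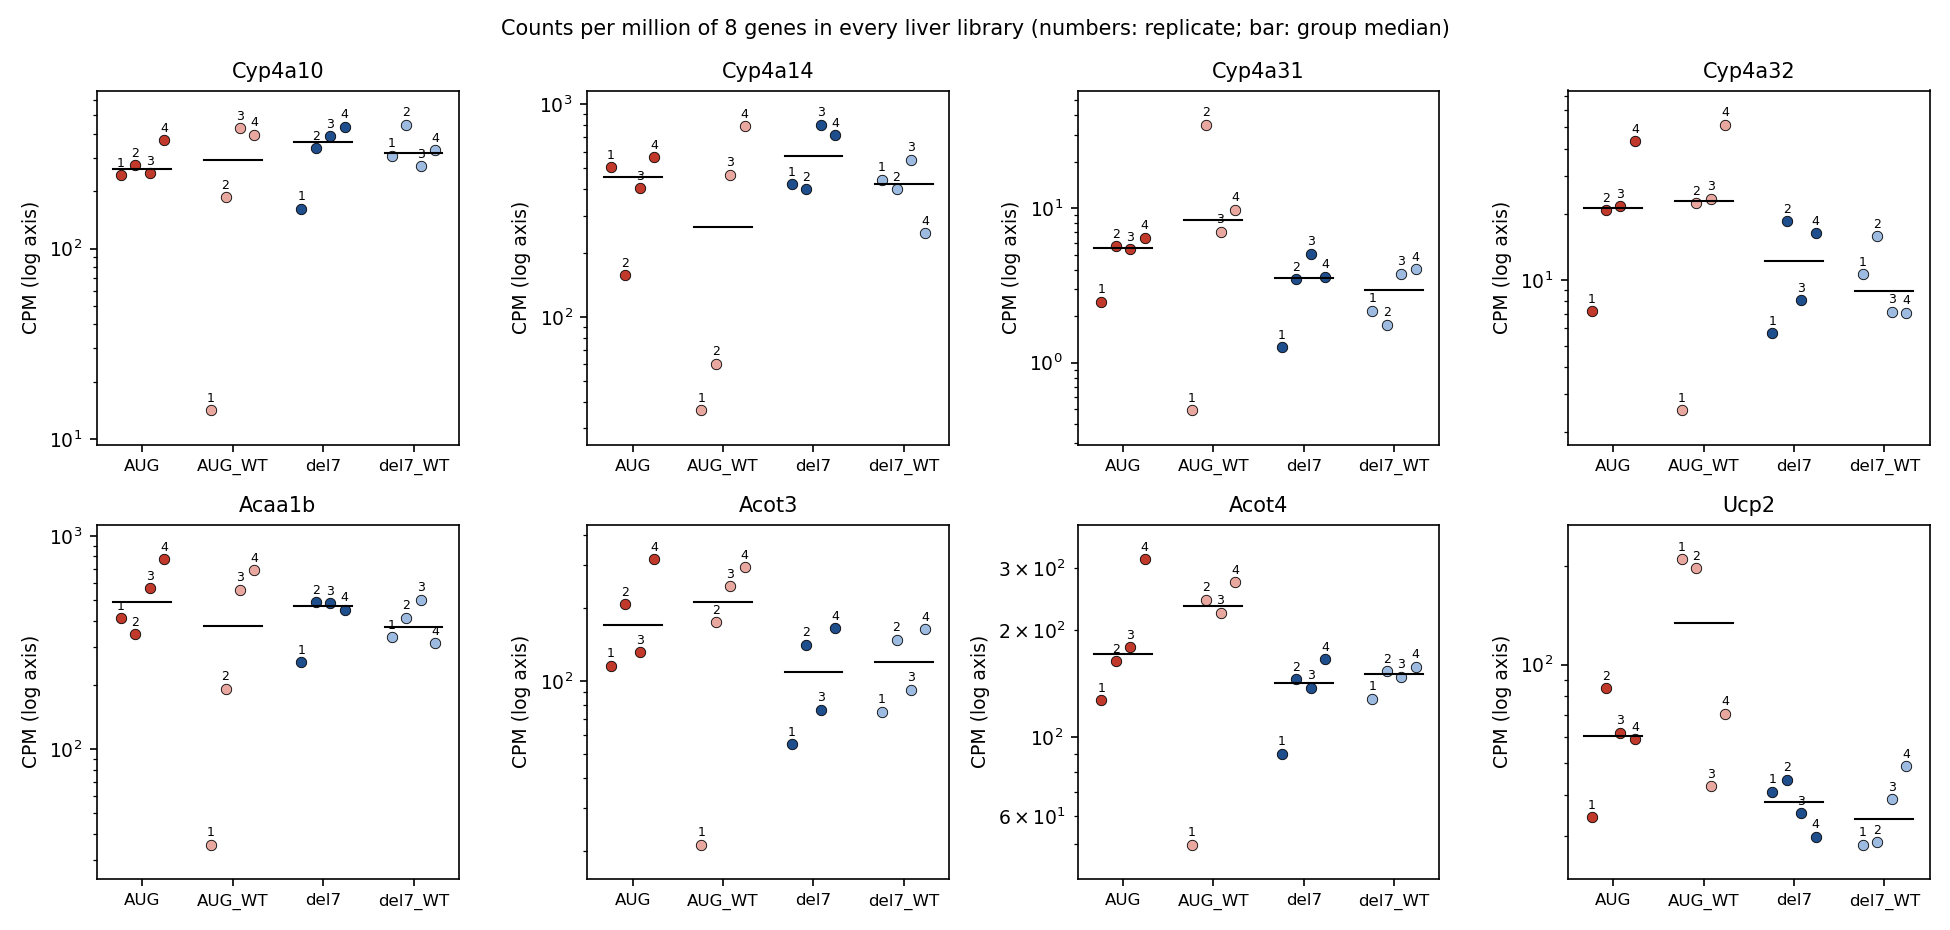
CPM (log axis) of 8 genes in each library, with replicate numbers beside the points and bars for group medians. AUG_WT replicate 1 is lowest of 16 for all shown genes but Ucp2, where it is highest at 211 CPM; Cyp4a31 ranges from 0.491 CPM in AUG_WT replicate 1 to 34.8 CPM in AUG_WT replicate 2.

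Several of these genes have near-identical copies, and STAR's gene counts leave out reads placed at several loci, so their values are uncertain. In the coding sequence Cyp4a10 matched Cyp4a32 at 97.2% and Cyp4a31 at 96.6% of bases, and Cyp4a31 matched Cyp4a32 at 96.0%. Cyp4a14 was 75.4% to 76.1% identical to the other 3. Acot1 and Acot2 were 95.5% identical, and Acaa1a and Acaa1b 96.6%, while Acot3 and Acot4 were at most 84.1% identical to the other thioesterases. The longest stretch of identical bases was 327 for Acaa1a with Acaa1b, 273 for Acot1 with Acot2 and 203 for Acot1 with Acot3. It was 186 for Cyp4a10 with Cyp4a31, 179 for Cyp4a10 with Cyp4a32 and 211 for Cyp4a31 with Cyp4a32. Reads of close copies can drop out or be counted for the wrong copy. How far this touched the Cyp4a, Acot and Acaa1 genes was not tested.

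Among the other targets, Fabp1 had 911, 1147, 833 and 901 CPM in AUG replicates 1 to 4, against 148, 782, 923 and 1194 CPM in AUG_WT replicates 1 to 4. It had 650.1, 861, 629 and 1125 CPM in del7 replicates 1 to 4, against 926, 887, 1111 and 1347 CPM in del7_WT replicates 1 to 4. Its highest library was del7_WT replicate 4, and the groups overlapped. Vnn1 had 65.2, 56.9, 94.8 and 95.7 CPM in AUG replicates 1 to 4, against 14.5, 141, 73.9 and 99.0 CPM in AUG_WT replicates 1 to 4. It had 46.0, 41.2, 67.1 and 114 CPM in del7 replicates 1 to 4, against 74.8, 86.9, 78.0 and 85.2 CPM in del7_WT replicates 1 to 4. Vnn1 encodes a pantetheinase, and the del7_WT libraries lay within the range of the del7 libraries. Angptl4 had 50.5, 50.5, 56.2 and 66.0 CPM in AUG replicates 1 to 4, against 21.2, 70.5, 86.0 and 72.7 CPM in AUG_WT replicates 1 to 4. It had 18.1, 58.4, 44.1 and 54.0 CPM in del7 replicates 1 to 4, against 37.9, 60.0, 88.8 and 49.1 CPM in del7_WT replicates 1 to 4. Angptl4, a secreted inhibitor of lipoprotein lipase, was lower in all 4 AUG libraries than in AUG_WT replicates 2 to 4, and lowest of 16 in del7 replicate 1. Acot1 had 6.67, 13.05, 6.75 and 18.0 CPM in AUG replicates 1 to 4, against 0.491, 7.68, 22.0 and 19.3 CPM in AUG_WT replicates 1 to 4. It had 4.19, 9.12, 9.61 and 15.7 CPM in del7 replicates 1 to 4, against 17.4, 13.3, 17.4 and 11.4 CPM in del7_WT replicates 1 to 4. Acot1, a cytosolic thioesterase, was at 7 counts in AUG_WT replicate 1. Ucp2 had 34.1, 84.7, 61.9 and 59.3 CPM in AUG replicates 1 to 4, against 211, 198, 42.5 and 70.8 CPM in AUG_WT replicates 1 to 4. It had 40.9, 44.5, 35.2 and 29.7 CPM in del7 replicates 1 to 4, against 28.2, 28.6, 38.8 and 49.0 CPM in del7_WT replicates 1 to 4. AUG_WT replicates 1 and 2 were above all other libraries, and AUG_WT replicates 3 and 4 lay within the range of the AUG libraries. Pdk4, the kinase that shuts off pyruvate dehydrogenase in fasting, averaged 17.9 ± 3.21 CPM in AUG, 17.8 ± 11.6 in AUG_WT, 26.8 ± 17.2 in del7 and 19.6 ± 7.26 in del7_WT (SD, n = 4 each).

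In AUG livers against AUG_WT livers, 0 of the 39 genes passed an edgeR adjusted p of 0.05, where 4 of 14421 tested genes (0.0277%) did. DESeq2 and limma voom also called 0 of the 39. At an unadjusted p under 0.05 there was 1 of 39, against 8.81% of all tested genes. It was Ucp2 (ENSMUSG00000033685.14, chromosome 7), at 60.0 ± 20.7 CPM in AUG livers and 130.4 ± 86.1 CPM in AUG_WT livers (SD, n = 4 each), a log2 fold change of -1.12 with SE 0.41 (edgeR adjusted p = 0.561). Without AUG_WT replicate 1 its log2 fold change was -0.77 with SE 0.40 (edgeR adjusted p = 0.834). Of the 39 genes, 30 had a log2 fold change above 0 with all libraries, against 43.8% of tested genes. Without AUG_WT replicate 1 the call count was again 0 of 39, where 4 of 14582 tested genes (0.0274%) passed, and 6 of 39 lay above 0, against 52.5%. The median log2 fold change of the 39 genes was accordingly 0.15 with all libraries and -0.10 without that library, against -0.04 and 0.01 for all tested genes. Leaving out AUG_WT replicate 4 instead put it at 0.33, with 36 of 39 genes above 0. The hepatocyte and immune markers that moved in AUG_WT replicate 1 are given above, and their part in this turn of sign was not tested. Other lists moved with it too. Erythroid markers summed to 138 to 530.2 CPM in AUG livers, against 609.8 to 2966 CPM in AUG_WT replicates 2 to 4 and 134 CPM in AUG_WT replicate 1. Of 7 tested erythroid genes, 5 were lower in every AUG library than in AUG_WT replicates 2 to 4. Without AUG_WT replicate 1, 3.15% of all tested genes separated downward and 2.33% upward. The 9 genes of fasting glucose metabolism, such as Pck1 and Tat, summed to 3351 to 4276 CPM in AUG livers, against 4474 to 4952 CPM in AUG_WT replicates 2 to 4 and 1879 CPM in AUG_WT replicate 1, with 0 of 9 separating singly. Their part in the values without AUG_WT replicate 1 was not tested.

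By branch, the medians of the regulators and of the mitochondrial, peroxisomal and microsomal genes were above 0 with all libraries and below 0 without that library, and the other targets were below 0 in both fits. For mitochondrial genes the median was 0.19 with all libraries, with 18 of 19 above 0, and -0.04 without AUG_WT replicate 1, with 5 of 19 above 0. Peroxisomal genes had 0.14 (5 of 6 above 0) and -0.10 (1 of 6), and microsomal genes 0.03 (2 of 4) and -0.35 (0 of 4). Without that library the mitochondrial values spanned -0.22 (Acot2) to 0.12 (Acadm), at a median SE of 0.14, and 0 of 19 passed in either fit. Regulators had 0.07 and -0.19, and the other targets -0.11 and -0.42, in the same order of fits. Other fits moved these medians too. Without AUG replicate 4, and with all AUG_WT libraries, microsomal genes had -0.30, regulators -0.04, peroxisomal genes -0.00012 and mitochondrial genes 0.13. With replicate number as a block and AUG_WT replicate 1 left out, the mitochondrial median was -0.001, with 9 of 19 above 0. In that fit 14 of the 39 genes lay above 0.

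With all libraries, 0 of the 39 genes separated AUG from AUG_WT completely in either direction, where 0.853% of tested genes did so upward and 1.2% downward. Without AUG_WT replicate 1, Cyp4a31 and Angptl4 were lower in all 4 AUG libraries than in the other 3 AUG_WT libraries, 2 of 39 genes (5.13%), where 3.15% of tested genes separated downward, and 0 of 39 were higher, against 2.33%. Cyp4a31 (ENSMUSG00000028712.13, chromosome 4) had a log2 fold change of -1.37 with SE 0.75 (edgeR adjusted p = 0.618) with all libraries and -1.76 with SE 0.51 (edgeR adjusted p = 0.654) without AUG_WT replicate 1. It was the 1 member at an unadjusted p under 0.05 in that second fit, where 5.92% of tested genes were. Angptl4 (ENSMUSG00000002289.17, chromosome 17) had -0.16 with SE 0.39 (edgeR adjusted p = 0.921) with all libraries and -0.43 with SE 0.31 (edgeR adjusted p = 0.902) without. Neither passed the threshold in any fit of this comparison.

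In del7 livers against del7_WT livers, 0 of the 39 genes passed an edgeR adjusted p of 0.05, where 0 of 14421 tested genes (0%) did. DESeq2 and limma voom also called 0 of the 39. At an unadjusted p under 0.05 there were 0 of 39, against 1.92% of tested genes. Of the 39 genes 11 lay above 0 and 28 below, against 50.1% of tested genes above 0, with a median of -0.10, against 0.00 for all tested genes. Without AUG_WT replicate 1 in the fit, 0 of 39 passed (0% of tested genes) and 11 lay above 0, against 47.7%. Del7 replicate 1 was the lowest of 15 libraries for 20 of the 39 genes, against 7.69% of tested genes. Without it 20 of 39 were below 0, at a median of -0.01, and 14 of 19 mitochondrial genes (-0.05) and 4 of 6 other targets (-0.16) still were. Without del7 replicate 4, 31 of 39 were below 0, at a median of -0.19. The hepatocyte markers were not low in del7 replicate 1, at a mean level of 0.04 on the centred log2 scale, within the -0.13 to 0.15 of the 15 libraries. In del7 replicate 4 they were at -0.09. All 13 Kupffer cell markers were tested, and their summed level was 449.7 to 739.9 CPM in del7 livers and 275 to 454 CPM in del7_WT livers. Of these markers, 5 of 13 were higher in every del7 than in every del7_WT library, where 2.41% of all tested genes were. The part of these markers in the result was not tested. Mitochondrial genes had a median of -0.10 with 17 of 19 below 0, peroxisomal genes -0.13 with 4 of 6 below 0, and microsomal genes 0.22 with 1 of 4 below 0. The peroxisomal median was 0.06 without del7 replicate 1. The microsomal median stayed above 0, at 0.07 to 0.48, with 1 library left out at a time. It was -0.02 with replicate number as a block, with 3 of 4 below 0, and -0.19 against all 8 wild types, with 2 of 4 below 0.

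The del7 values with the smallest p did not pass. Angptl4 averaged 43.7 ± 18.1 CPM in del7 livers and 58.9 ± 21.8 CPM in del7_WT livers (SD, n = 4 each), a log2 fold change of -0.43 with SE 0.39 (edgeR adjusted p = 1). Acat1 (ENSMUSG00000032047.6, chromosome 9) averaged 257 ± 25.7 CPM in del7 livers and 324 ± 43.8 CPM in del7_WT livers (SD, n = 4 each), a log2 fold change of -0.34 with SE 0.32 (edgeR adjusted p = 1). In the fit without AUG_WT replicate 1, with smaller standard errors, Acat1 was the 1 member at an unadjusted p under 0.05, at -0.35 with SE 0.14 (edgeR adjusted p = 0.884), where 5.34% of tested genes were. Fabp1 (ENSMUSG00000054422.8, chromosome 6) was next, at -0.40 with SE 0.20 (edgeR adjusted p = 0.950). No member separated del7 from del7_WT completely, where 2.41% of tested genes did so upward and 1.61% downward.

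Whether the genotype effects differ between the lines was tested as the AUG effect minus the del7 effect. By edgeR 0 of 39 genes passed an adjusted p of 0.05, where 1 of 14421 tested genes (0.00693%) did, and DESeq2 and limma voom called 0 of the 39. At an unadjusted p under 0.05 there were 0 of 39, against 5.21% of tested genes. Of the 39 genes 30 lay above 0, against 45.1%, and 22 without AUG_WT replicate 1, against 52.6%. In that fit 0 of 39 passed, where 2 of 14582 tested genes (0.0137%) did. The median difference of the 39 genes was 0.27 with all libraries and 0.0055 without AUG_WT replicate 1. Ucp2 came closest with all libraries, at a difference in log2 fold change of -1.18 with SE 0.58 (edgeR adjusted p = 0.864). Without AUG_WT replicate 1 it was Cyp4a31, at -1.95 with SE 0.74 (edgeR adjusted p = 1), the 1 member of 39 at an unadjusted p under 0.05, against 3.02% of tested genes.

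**Figure D5:**
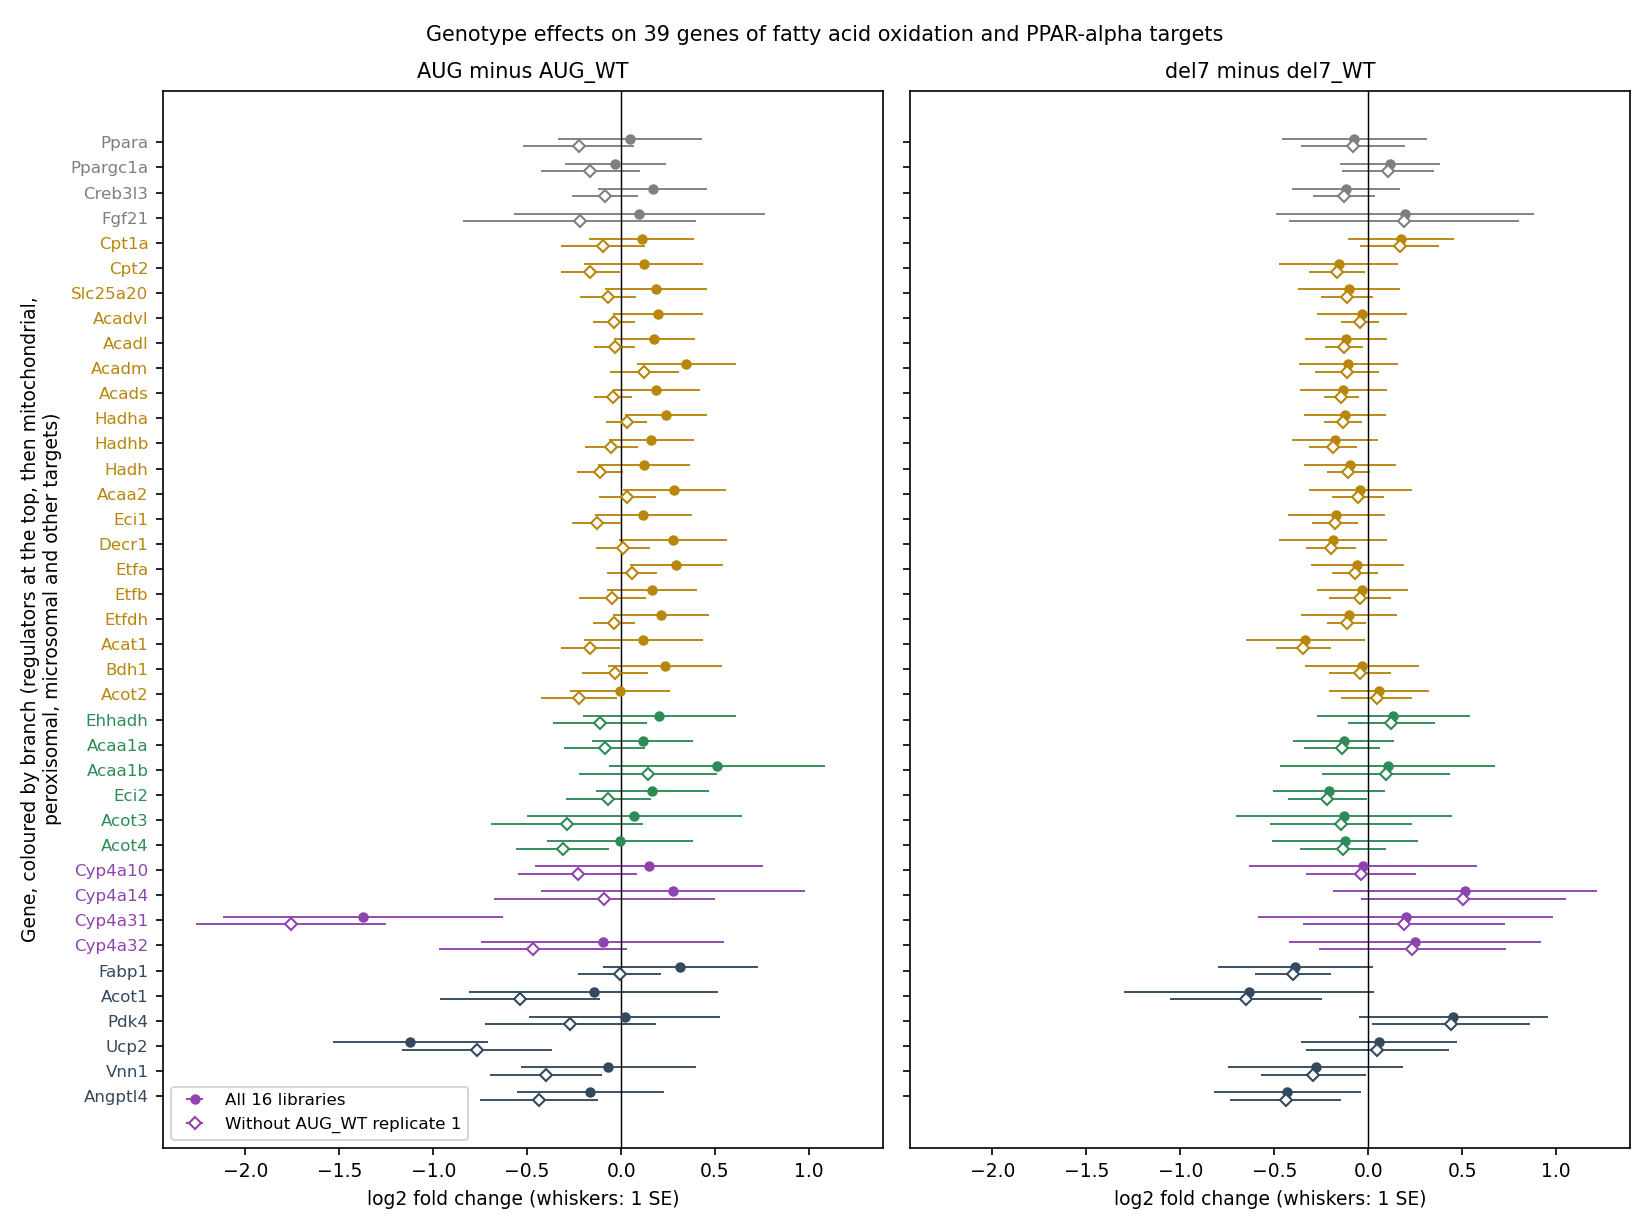
Log2 fold change of each of the 39 genes with whiskers of 1 standard error, coloured by branch, for AUG against AUG_WT and del7 against del7_WT, with all libraries and without AUG_WT replicate 1. None of the 39 passed an edgeR adjusted p of 0.05, and 30 of 39 genes lie above 0 for AUG with all libraries and 6 of 39 without AUG_WT replicate 1.

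The wild-type groups of the lines were compared with each other, to show how far lines without the mutation differ. By edgeR 0 of the 39 genes passed, where 5 of 14421 tested genes (0.0347%) did. At an unadjusted p under 0.05 there were 2 of 39, both higher in AUG_WT, against 11.8% of tested genes. Ucp2 averaged 130.4 ± 86.1 CPM in AUG_WT livers and 36.1 ± 9.88 CPM in del7_WT livers (SD, n = 4 each), a log2 difference of 1.85 with SE 0.42 (edgeR adjusted p = 0.209), and Cyp4a31 had 2.16 with SE 0.78 (edgeR adjusted p = 0.316). DESeq2 called 1 of the 39 genes, Ucp2, at 1.84 with a DESeq2 adjusted p of 0.00486, where 0.485% of tested genes passed, and limma voom called 0. Without AUG_WT replicate 3, edgeR called Ucp2 too, at 2.13 with an edgeR adjusted p of 0.0473. In AUG_WT, Ucp2 was at 211 and 198 CPM in replicates 1 and 2 and at 42.5 and 70.8 CPM in replicates 3 and 4, against 28.2 to 49.0 CPM in del7_WT, so the wild-type groups overlapped.

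Without AUG_WT replicate 1, edgeR again called 0 of the 39 genes between the wild types, where 10 of 14582 tested genes (0.0686%) passed, and limma voom called 0. At an unadjusted p under 0.05 there were 6, against 7.47% of tested genes. DESeq2 called 2, where 0.576% of tested genes passed, Cyp4a31 at 2.55 (DESeq2 adjusted p = 0.00103) and Ucp2 at 1.51 (DESeq2 adjusted p = 0.0322). In edgeR Cyp4a31 was at 2.55 with SE 0.53 (edgeR adjusted p = 0.123) and Ucp2 had an edgeR adjusted p of 0.293. Of the 39 genes, 34 were above 0, against 49.1% of tested genes, with a median of 0.14; with all libraries 10 of 39 were, against 55.4%, with a median of -0.11. All 3 remaining AUG_WT libraries were above all 4 del7_WT libraries for Cyp4a31, Cyp4a32, Acot2, Acot3 and Acot4, 5 of 39 genes (12.8%), where 4.52% of tested genes separated in that direction, and 0 of 39 in the other, against 3.24%. With all libraries, 0 of 39 did, against 2% upward and 1.53% downward. Acot4 (ENSMUSG00000052392.6, chromosome 12) had 0.73 with SE 0.25 (edgeR adjusted p = 0.435) and Acot3 (ENSMUSG00000021228.16, chromosome 12) 0.98 with SE 0.40 (edgeR adjusted p = 0.574). Cyp4a32 (ENSMUSG00000063929.7, chromosome 4) had 1.65 with SE 0.51 (edgeR adjusted p = 0.376) and Acot2 (ENSMUSG00000021226.8, chromosome 12) 0.49 with SE 0.20 (edgeR adjusted p = 0.565). Erythroid markers summed to 609.8 to 2966 CPM in AUG_WT replicates 2 to 4 and 134 CPM in AUG_WT replicate 1, against 129 to 403 CPM in del7_WT, with 4 of 7 higher in every one of replicates 2 to 4. B and plasma cell markers summed to 107 to 378 CPM in AUG_WT replicates 2 to 4 and 1620 CPM in AUG_WT replicate 1, against 61.1 to 125 CPM in del7_WT, with 3 of 13 higher in every one of replicates 2 to 4. The part of these markers in the wild-type differences, Ucp2 and Cyp4a31 included, was not tested. Acot1 to Acot4 are on chromosome 12 and the Cyp4a genes on chromosome 4.

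A wider list of 94 other genes of these pathways, 85 of them tested, was tested as well. By edgeR 0 of 85 passed in any comparison, with or without AUG_WT replicate 1. At an unadjusted p under 0.05 there were 3 of 85 for AUG (8.81% of all tested genes), 1 for del7 (1.92%), 3 for their difference (5.21%) and 4 between the wild types (11.8%). With AUG_WT replicate 1 left out there were 4 for AUG (5.92% of all tested genes), 6 for del7 (5.34%), 3 for their difference (3.02%) and 14 between the wild types (7.47%). In the AUG comparison 60 of 85 had a log2 fold change above 0 with all libraries, against 43.8% of all tested genes, and 34 of 85 without AUG_WT replicate 1, against 52.5%. In the del7 comparison 29 of 85 were above 0, against 50.1%. With all libraries, 1 of 85 was higher (0.853% of all tested genes) and 1 lower (1.2%) in AUG without overlap with AUG_WT, and 0 higher (2.41%) and 2 lower (1.61%), Cyp4f13 and Txnip, in del7 without overlap with del7_WT. The genes with the smallest p in the AUG comparison were Slc27a1, which brings fatty acids into the cell, and Scp2, a peroxisomal sterol carrier and thiolase. Slc27a1 had 4.98, 5.58, 6.66 and 8.06 CPM in AUG, against 9.54, 9.76, 10.6 and 12.5 CPM in AUG_WT. The groups did not overlap, AUG_WT replicate 1 included, at a log2 fold change of -0.74 with SE 0.23 (edgeR adjusted p = 0.561). In del7 it had 5.45, 7.43, 9.22 and 10.3 CPM, against 9.95, 15.9, 8.83 and 10.8 CPM in del7_WT, a log2 fold change of -0.50 with SE 0.22 (edgeR adjusted p = 1). Scp2 had 574, 742, 594 and 689.9 CPM in AUG, against 238, 431, 485 and 545 CPM in AUG_WT. Its groups did not overlap either, at 0.61 with SE 0.21 (edgeR adjusted p = 0.561) with all libraries and 0.43 with SE 0.15 (edgeR adjusted p = 0.778) without AUG_WT replicate 1. In del7 Scp2 had 653, 533, 781 and 701 CPM, against 670, 566, 684 and 527 CPM in del7_WT. AUG_WT against del7_WT gave -0.53 with SE 0.21 (edgeR adjusted p = 0.349), and -0.34 with SE 0.15 (edgeR adjusted p = 0.613) without AUG_WT replicate 1. Cyp4f13, a microsomal P450, had 48.2, 48.8, 57.9 and 57.1 CPM in del7, against 64.6, 72.5, 65.7 and 64.3 CPM in del7_WT, without overlap, at -0.33 with SE 0.16 (edgeR adjusted p = 1). In the other line it had 48.1, 59.7, 55.9 and 57.5 CPM in AUG, against 28.0, 55.3, 51.6 and 51.9 CPM in AUG_WT. Every AUG_WT library thus lay below every del7_WT library too, 1 of 85 genes, where 1.53% of all tested genes separated downward. That log2 difference between the wild types was -0.52 with SE 0.17 (edgeR adjusted p = 0.287), and -0.35 with SE 0.10 (edgeR adjusted p = 0.293) without AUG_WT replicate 1.

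Replicate numbers moved with the levels of some of the 39 genes. Replicate 1 was the lowest library in all 4 groups at once for 7 of 39 genes (Ppara, Cpt2, Slc25a20, Hadhb, Decr1, Acot3 and Acot4), against 1.67% of tested genes, and AUG_WT replicate 1 is 1 of those libraries. Replicate 4 was highest in all 4 groups for Acot3 and Acot4, against 0.804% of tested genes. AUG_WT replicate 4 was the highest of 15 libraries for 14 of 39 genes, against 8.24% of tested genes, and AUG replicate 4 for 8 of 39, against 7.27%. The labels do not say that a number marks a shared litter, day or batch, so this is a description of these libraries.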

How the data were processed

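RNA was measured in 16 mouse liver samples. Per the labels' protocols, total RNA was depleted of ribosomal RNA and made into directional libraries. The submitters' processing notes name cutadapt 2.10, STAR 2.7.9a and the build GRCm39, and which annotation was used was not given in the sources used here. Raw gene counts, whole numbers, were deposited by the authors in a series table, which equalled the reverse-strand column of the 16 sample tables. Reads that met no annotated exon on the counted strand made up 21.8% to 35.0% of a library (35.0% in AUG_WT replicate 1). They can include reads from introns or from the opposite strand of genes. Lines that name no gene stayed out of library sizes and tests.

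Differential expression was tested on the counts with edgeR 4.0.16 (R 4.3.3) over all genes kept by filterByExpr with a minimum count of 10 (14421 with all libraries, 14582 without AUG_WT replicate 1). The fit used TMM scaling, 4 group means, 12 residual degrees of freedom, quasi-likelihood F tests and Benjamini-Hochberg adjustment over all tested genes at 0.05. It was tested on simulated data. Of genes changed 1.5-fold there, it called 11.94% for AUG and 10.45% for del7. At 2-fold it called 37.3% and 40.3%, and at 4-fold 75.8% and 78.8%. Most changes of 1.5-fold to 2-fold thus went uncalled in the simulation, which limits what a count of 0 called genes can show. Alternatives were DESeq2 1.42.0, limma voom (limma 3.58.1), other scaling, filters and counting columns, other references, a replicate block and leaving out each library. CPM uses TMM-scaled libraries, and log2 CPM a prior count of 2. SE is that of the log2 fold change. Comparisons of AUG with AUG_WT and of AUG_WT with del7_WT share the AUG_WT libraries.

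Identifiers were named through GENCODE M21, which is on GRCm38, so exon lengths come from that build, and promoter sequences from RefSeq on GRCm38.p6. Identity of copies is that of the longest open reading frames of their transcripts, since no protein table was used here. The 39 genes, the wider list, the branches and the marker lists were chosen with earlier results of these data known. The rule for values in every library took genes that passed in any comparison, the 2 genes with the smallest p in the AUG and del7 comparisons (with and without AUG_WT replicate 1), in each branch the 2 with the highest mean CPM and the 1 with the largest ratio of highest to lowest library, and genes whose mutant libraries do not overlap the wild types (up to 6 in a direction by p), and from each wider list up to 2 genes with the smallest p. Other genes are given as counts and ranges, or with their values where they make up a branch the text describes, and of these Acot3, Acot4 and Cyp4a32 were picked after their values were seen.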

Additional observations from a re-analysis of the deposited data

Results flagged for a closer look

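In groups of 4 samples, a library was picked out where its gap to the nearest other library took up more of the group's range than Dixon's critical value, which chance does in about 1 of 20 groups. Of 76 groups of the named genes and branch levels, 2 (2.63%) met this. Acaa1b, the peroxisomal thiolase, was at 254 CPM in del7 replicate 1, against 449.8 to 488 CPM in the other 3 del7 libraries. The mitochondrial branch level was -1.41 in AUG_WT replicate 1, against 0.01 to 0.29 in the other 3 AUG_WT libraries.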

How the results depend on the processing

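Over 27 to 30 fits per comparison, 0 of the 39 genes passed in the AUG, del7 and difference comparisons, where the smallest adjusted p were 0.204 (Ucp2, without AUG_WT replicate 4), 0.545 (Acat1, only the groups compared) and 0.452 (Ucp2, without AUG_WT replicate 4). Between the wild types, the count of genes called higher in AUG_WT was 0 in the reported fit, 1 by DESeq2 and 2 by DESeq2 with AUG_WT replicate 1 left out, an alternative chosen after seeing the data; leaving out 1 library at a time gave 0 to 1, with the 1 without AUG_WT replicate 3. The cause was not tested. Among values of single genes, the 4 that crossed the threshold are these calls of Ucp2 and Cyp4a31. No called value changed sign. Median log2 fold changes of the 39 genes with 1 library left out ran from -0.10 (without AUG_WT replicate 1) to 0.33 (without AUG_WT replicate 4) for AUG, from -0.19 to -0.01 for del7 and from -0.30 to 0.14 for the wild types. With all 7 other wild types as the comparison group, also chosen after seeing the data, the AUG median was -0.01 and the del7 median -0.16. The labels do not say what a replicate number shares. Deviations of same-numbered samples from the group means correlated at -0.16 to 0.35 between AUG and AUG_WT, with 1 of 4 over 0.1 and 1 of 4 best with its own number. Between del7 and del7_WT they correlated at 0.09 to 0.28, all above 0, with 3 of 4 over 0.1 and 3 of 4 best with their own number, a hint from the data and short of every pair over 0.1. Between the wild types 0 of 4 were over 0.1. With a replicate block, 0 of the 39 genes were called in any comparison, and the medians were 0.23 for AUG, -0.13 for del7, 0.38 for their difference and -0.21 between the wild types. Depth limits Fgf21, Cyp4a31 and Acot1, at 7 counts in their lowest library.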
